A study of Homo sapiens with 6 samples.

Results

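The genes described here are 5 cyclins that act in the G1 phase of the cell cycle and 5 inhibitors of cyclin-dependent kinases (CDKs). They comprise the D-type cyclins CCND1, CCND2 and CCND3, the E-type cyclins CCNE1 and CCNE2, the CIP/KIP inhibitors CDKN1A and CDKN1B, and the INK4 inhibitors CDKN2A, CDKN2B and CDKN2C. They were selected by gene symbol, and each of the 10 symbols had 1 row among the 58735 genes of the table. RNA was sequenced from H9, an established human embryonic stem cell line, at 6 time points between day 0 and day 30 of differentiation towards cardiac organoids, which are small three-dimensional cultures of heart cell types. Day 0 is the stem cell state and each later day is a group of its own, with 1 library a day and a harvest of 10 organoids each time, per the labels. The agents used to drive differentiation were not given in the sources used here, and the labels name no altered allele. All groups come from the same cell line, so the values speak for 1 genetic background.

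D-type cyclins bind CDK4 and CDK6, and E-type cyclins bind CDK2. Both kinds of complex phosphorylate the retinoblastoma protein RB1 and its relatives, which frees E2F transcription factors to turn on genes of DNA replication. CIP/KIP proteins bind cyclin and CDK complexes of several kinds, whereas INK4 proteins bind CDK4 and CDK6 alone. Pluripotent stem cells are known for a short G1 phase, and heart muscle cells for leaving the cell cycle as they mature.

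Levels are FPKM as the authors deposited them, that is, reads per kilobase of a gene, divided by a size factor of the library. The 6 libraries held 13500887 to 15526924 recovered reads. With 1 library a day no difference has a replicate check and no p-value is given. Brackets after levels, folds and ratios hold 95% intervals. These reflect counting error alone, and neither the spread between cultures nor the scaling of libraries enters them. A gene was tested in a comparison with at least 1 FPKM on either day, and was called higher or lower where log2(FPKM + 1) differed by at least 1. Marker genes were checked against the labels, which call all 6 samples embryonic stem cells. The summed level of 6 pluripotent markers was 1404 FPKM at day 0 and 298 FPKM at day 6, and was 2.75 FPKM at day 30, where NANOG and PRDM14 had no read. Over the same 3 days, 6 fibroblast markers summed to 16.7, 653 and 5792 FPKM and 7 cardiomyocyte markers to 2.42, 365 and 205 FPKM. The lower cardiomyocyte sum at day 30 rests mainly on MYL7, with 64.0 FPKM at day 30 against 336 FPKM at day 6. NKX2-5 and TTN stood slightly lower too, at 8.12 against 8.84 FPKM and 1.88 against 2.01 FPKM. MYH6 had 69.0 FPKM at day 30 against 3.43 FPKM at day 6, and MYH7, ACTN2 and TNNT2 also stood higher at day 30. Endoderm and liver markers, 6 in number, summed to 0.166, 416 and 483 FPKM. The higher sum at day 30 rests on AFP, with 299 FPKM at day 30, and on ALB, which both stood higher than at day 6. APOA1 stood lower, with 125 FPKM at day 30 against 264 FPKM at day 6, and TTR, FOXA2 and SOX17 stood lower too. In these bulk samples a change in the share of a cell type and a change in RNA per cell cannot be told apart.

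CDKN1A and CDKN2B gave the largest log2 differences of the 10, so the DNA before their starts is shown. That of CDKN2A, which lies beside CDKN2B, is shown too. RefSeq starts (GRCh38.p14) were given for 7 of the 10 members, and the windows searched are the 250 bases before each start. Exon bases at the end of the window are left out of the print, 56 for CDKN1A and 58 for CDKN2B. Capitals mark the GC box, the letters GGGCGG or their complement CCGCCC, which is the core of sites bound by the factor SP1.
CDKN1A, chr6:36678464-36678657, plus strand: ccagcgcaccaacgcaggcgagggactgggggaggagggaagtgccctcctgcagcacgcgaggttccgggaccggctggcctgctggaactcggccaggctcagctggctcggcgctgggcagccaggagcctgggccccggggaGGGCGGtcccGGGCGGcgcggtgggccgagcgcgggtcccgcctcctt
CDKN2B, chr9:22009364-22009555, minus strand: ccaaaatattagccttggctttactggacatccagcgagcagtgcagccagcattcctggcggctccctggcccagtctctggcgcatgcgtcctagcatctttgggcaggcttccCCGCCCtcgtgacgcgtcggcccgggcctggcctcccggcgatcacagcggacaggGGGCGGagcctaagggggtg
CDKN2A, upstream of its 2 starts, chr9:21995325-21995574, minus strand: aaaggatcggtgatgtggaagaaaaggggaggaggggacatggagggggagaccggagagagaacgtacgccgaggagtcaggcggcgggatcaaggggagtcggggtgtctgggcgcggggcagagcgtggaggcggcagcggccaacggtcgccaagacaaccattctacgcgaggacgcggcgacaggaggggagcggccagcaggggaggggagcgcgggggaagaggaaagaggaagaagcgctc
The whole windows of CDKN1A and CDKN2B held 4 and 2 GC boxes, of which 2 and 2 lie in the printed stretches, with overlapping matches counted separately, and the window of the upstream CDKN2A start held 0. The window of the other CDKN2A start held 1. The windows of CCND3 held 5, 2 and 0, and those of CDKN2C held 0, 5 and 1. The single window of CDKN1B held 1, and that of CCNE1 held 7. Of 35116 such windows over all genes, 42.6% held at least 1 GC box on either strand. The share of G and C was 45.6% to 81.2% in the members' windows, beside a median of 58.0% over all windows. The TATA box (TATAAA) and the E2F-type letters TTTNNCGC, searched on both strands, matched in none of the 12 windows of the 7 members, against 10.7% and 5.92% of all windows. These are matches of letters in the windows searched.

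**Figure D1:**
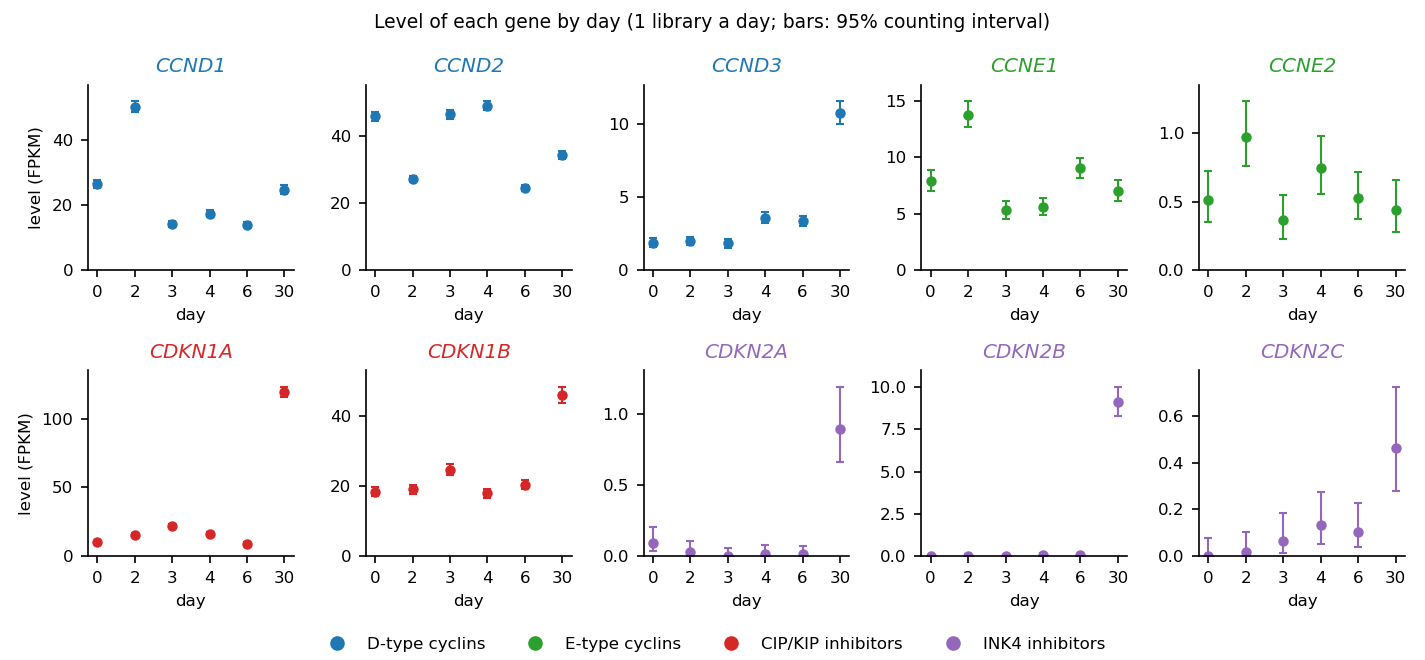
Level of each of the 10 genes (FPKM, vertical axis, each panel with its own scale from 0) at 6 time points (horizontal axis, days in order and not to scale). Points are single libraries and bars are 95% counting intervals. CCND1 stood highest at day 2, CDKN1A, CDKN1B, CCND3 and the 3 INK4 genes at day 30.

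CCND1 and CCND2 were the most abundant D-type cyclins per length, and CCND1 stood above CCND2 at day 2. CCND1 (ENSG00000110092, chromosome 11, 69641087 to 69654474, plus strand) had 26.5, 50.1, 14.1, 17.4, 14.0 and 24.7 FPKM on the 6 days from day 0 to day 30, in order of time. It was thus highest at day 2 and lowest at days 3 and 6, which did not differ beyond counting error. CCND2 (ENSG00000118971, chromosome 12, 4273772 to 4305350, plus strand) had 45.8, 27.2, 46.3, 48.9, 24.5 and 34.2 FPKM on the same days. It was lowest at day 6, with day 2 next, and highest at day 4, and days 3 and 0 did not differ beyond counting error.

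At day 2 against day 0, 6 of the 10 members were tested and no member was called, beside 8.78% of 16019 tested genes called higher and 7.75% lower. The fold of CCND1 was 1.89 (1.79 to 2.00) and that of CCND2 was 0.594 (0.567 to 0.621), both short of the call. At day 3 against day 2, CCND1 fell, with 14.1 FPKM at day 3 against 50.1 FPKM at day 2, 3.55-fold lower (3.31 to 3.81). CCND2 stood at 46.3 FPKM at day 3 against 27.2 FPKM at day 2, a fold of 1.70 (1.63 to 1.78) that was not called. In that step 6 of 10 members were tested, and 2 were called lower and 0 higher, beside 4.98% and 7.13% of 16149 tested genes. Days 4 against 3 and 6 against 4 had no called member, of 6 tested in each. The shares of all genes called higher and lower were 4.23% and 3.59% for day 4 against day 3, and 5.51% and 6.71% for day 6 against day 4. CCND2 came near to the call at day 6, with 24.5 FPKM against 48.9 FPKM at day 4, a log2 difference of -0.97.

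Ratios within a library do not depend on the scaling between libraries. On day 0 the ratio of CCND2 to CCND1 was 1.73 (1.64 to 1.83), on day 2 it was 0.543 (0.518 to 0.569), and on day 3 it was 3.28 (3.06 to 3.52). On day 4 it was 2.81 (2.65 to 2.99), on day 6 it was 1.75 (1.64 to 1.87), and on day 30 it was 1.38 (1.30 to 1.47). Day 2 was the only library of the 6 with more CCND1 than CCND2 per length. CCND1 made up 63.2% of the summed D-type FPKM at day 2, against 35.7% at day 0. By then 6 endoderm and liver markers summed to 121 FPKM, against 0.166 FPKM at day 0. Of that sum, FOXA2 and SOX17 had 40.7 and 79.4 FPKM, and AFP, ALB, APOA1 and TTR had at most 0.393 FPKM each. The part of cell types in the shift between CCND1 and CCND2 was not tested.

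CCND3 (ENSG00000112576, chromosome 6, 41934933 to 42050357, minus strand) was the only D-type cyclin called at day 30. Its levels were 1.89, 1.99, 1.84, 3.60, 3.36 and 10.8 FPKM over the 6 days. Days 0, 2 and 3 did not differ beyond counting error, nor did days 4 and 6, and day 30 lay above all of them. It rose at day 30, with 10.8 FPKM against 3.36 FPKM at day 6 (3.20-fold higher, 2.81 to 3.65), and was 5.70-fold higher (4.80 to 6.81) than at day 0. CCND1 to CCND3, taken within a library, was 2.30 (2.10 to 2.51) at day 30 against 14.0 (11.9 to 16.6) at day 0. CCND1 at day 30 had a fold of 0.934 against day 0, with 1 inside its interval, and CCND2 a fold of 0.746 (0.713 to 0.781). Against day 6 both stood higher but short of the call, CCND1 with a fold of 1.77 (1.63 to 1.91) and CCND2 with 1.40 (1.33 to 1.47). Scaled by total recovered reads, the log2 folds against day 6 were 0.38 for CCND1 and 0.04 for CCND2.

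**Figure D2:**
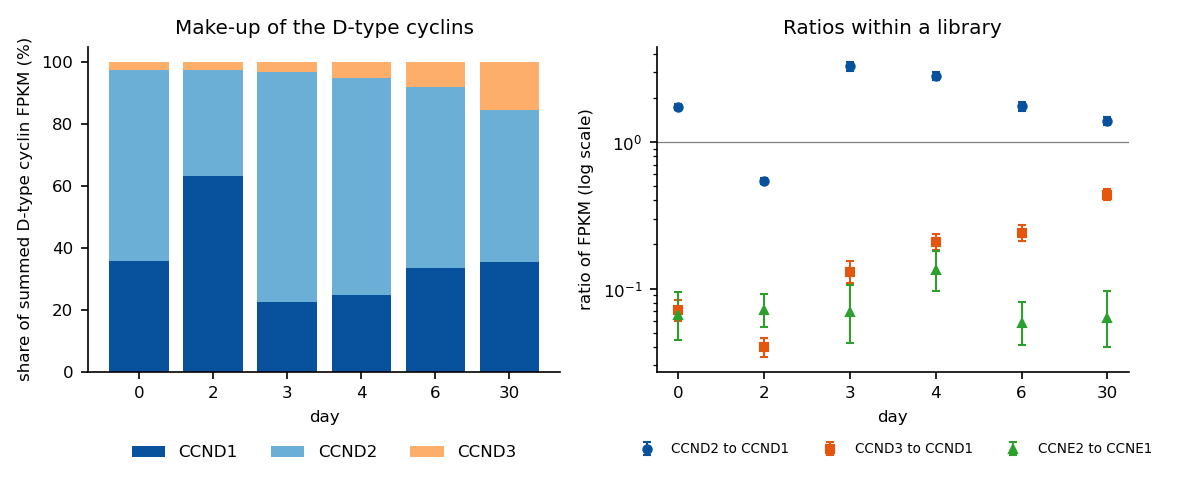
Left, share of CCND1, CCND2 and CCND3 in the summed FPKM of the D-type cyclins (%), by day. Right, ratios of FPKM between cyclins of the same library (log scale), with 95% counting intervals. CCND2 to CCND1 was under 1 at day 2 alone, and CCND3 made up 15.4% of the D-type sum at day 30 against 2.54% at day 0.

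CCNE1 (ENSG00000105173, chromosome 19, 29811898 to 29824308, plus strand), the main E-type cyclin of these libraries, was also highest at day 2 and lower at day 3. It had 7.88, 13.8, 5.30, 5.61, 9.03 and 6.98 FPKM over the 6 days. Day 2 was highest and days 3 and 4 lowest, and the order of days 6, 0 and 30 between them was not resolved from neighbour to neighbour. CCNE1 fell at day 3, with 5.30 FPKM against 13.8 FPKM at day 2 (2.59-fold lower, 2.20 to 3.07), the other call of that step. The fold at day 30 was 0.774 (0.653 to 0.914) against day 6 and 0.886 (0.740 to 1.06) against day 0, with no call.

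CCNE2 (ENSG00000175305, chromosome 8, 94879770 to 94896678, minus strand) stayed under 1 FPKM in all 6 libraries, so it entered no comparison. Its levels were 0.517, 0.975, 0.365, 0.748, 0.526 and 0.442 FPKM, from 23 to 69 reads. No pair of neighbours in the order of its levels differed beyond counting error, while days 2 and 0 did, with a fold of 1.89 (1.23 to 2.95). CCNE1 stood 7.49 (5.52 to 10.3) to 17.2 (12.4 to 24.4) times above CCNE2 per length, lowest at day 4 and highest at day 6. Of the CCNE2 exon bases, 37.0% are also exon of INTS8 on the opposite strand, and it is not stated whether counting used strand. INTS8 had 3.44 FPKM at day 30 and 12.1 FPKM at day 0, so how many reads of the shared bases were given to either gene is not known.

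CDKN1A and CDKN1B both rose at day 30. CDKN1A (ENSG00000124762, chromosome 6, 36676460 to 36687339, plus strand) encodes p21, which stops CDK2 complexes and is a well-known target of the tumour suppressor p53. It had 10.3, 15.3, 21.7, 16.2, 9.12 and 119 FPKM over the 6 days. Up to day 6 it was highest at day 3 and lowest at days 0 and 6, which did not differ beyond counting error, and day 30 lay above all other days. The level at day 30 rested on 4501 reads, against 481 at day 6, and 99.5% of all genes lay below it. CDKN1A was 13.1-fold higher at day 30 than at day 6 (11.9 to 14.4) and 11.6-fold higher than at day 0 (10.5 to 12.8).

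CDKN1B (ENSG00000111276, chromosome 12, 12715058 to 12722371, plus strand) encodes p27, known for holding resting cells out of the cycle. Its levels of 18.3, 19.0, 24.6, 17.9, 20.4 and 45.8 FPKM varied little up to day 6, and days 6, 2, 0 and 4 did not differ from neighbour to neighbour beyond counting error. At day 30 it was 2.25-fold higher (2.08 to 2.44) than at day 6 and 2.50-fold higher (2.29 to 2.74) than at day 0. The call against day 6 was lost when libraries were scaled by total recovered reads (log2 difference 0.70) or as TPM (0.86), and the call against day 0 held under both. CDKN1A to CDKN1B was 2.61 (2.46 to 2.76) at day 30, against 0.448 (0.401 to 0.5003) at day 6. On the 5 days up to day 6 the ratio lay below 1, from 0.448 to 0.907, and at day 4 its interval, 0.820 to 1.002, held 1.

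CDKN2A, CDKN2B and CDKN2C, the INK4 genes among the members, were close to silent up to day 6. CDKN2B (ENSG00000147883, chromosome 9, 22002903 to 22009363, minus strand), which encodes p15, had 0, 2, 0, 5 and 4 reads on days 0, 2, 3, 4 and 6, and 457 reads at day 30. These amount to at most 0.0780 FPKM before day 30 and to 9.12 FPKM (8.30 to 9.99) at day 30. CDKN2B was 160-fold higher (62.0 to 589) at day 30 than at day 6 and at least 179-fold higher than at day 0, taking a floor of 3 reads in the day 0 library. It passed the minimum of 1 FPKM only through day 30, so in that comparison it could be called only in one direction.

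CDKN2A (ENSG00000147889, chromosome 9, 21967753 to 21995301, minus strand) lies beside CDKN2B and encodes p16 and, in another reading frame, ARF, which a value per gene cannot separate. It had 6, 2, 0, 1 and 1 reads on days 0, 2, 3, 4 and 6, and 48 reads, or 0.898 FPKM (0.662 to 1.19), at day 30. That level missed the minimum, so CDKN2A was not tested, and its fold over day 0 was 9.41 (4.02 to 26.9). CDKN2B to CDKN2A at day 30 was 10.2 (7.53 to 14.0). CDKN2B-AS1, an antisense transcript across this region, had 0.141 FPKM at day 30 and was listed at 0 on the other 5 days. CDKN2C (ENSG00000123080, chromosome 1, 50960745 to 50974633, plus strand), which encodes p18, had 0, 1, 3, 7 and 6 reads up to day 6 and 19 reads, or 0.464 FPKM (0.279 to 0.724), at day 30. It was not tested in any comparison, and day 30 lay above day 4, the next in order, beyond counting error.

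**Figure D3:**
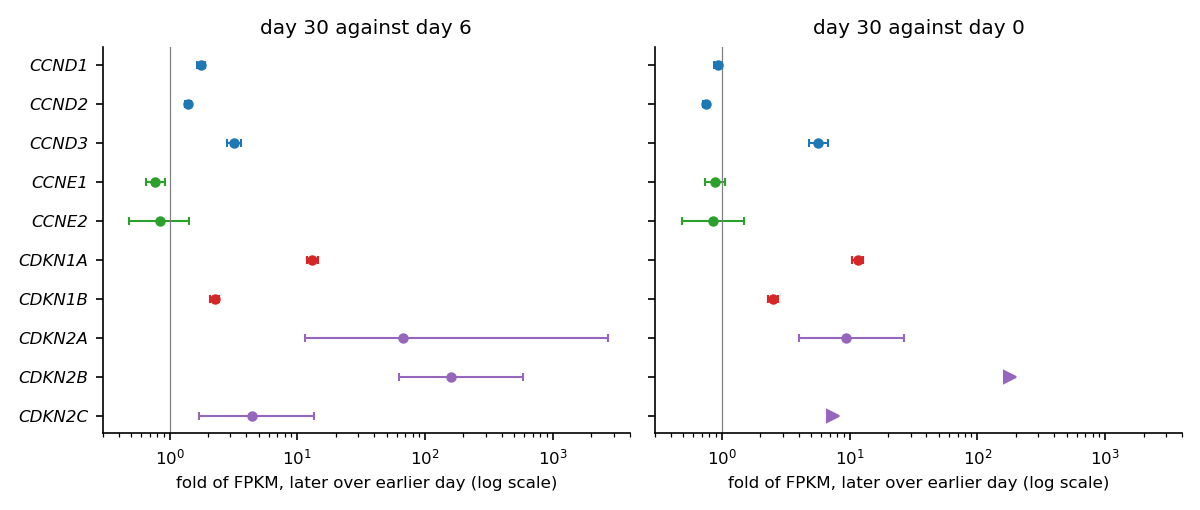
Fold of FPKM at day 30 over day 6 (left) and over day 0 (right) for each gene, on a log scale. Points have 95% counting intervals, triangles are lower bounds where the earlier library had 0 reads, and the grey line marks a fold of 1. The 5 inhibitors all lie right of the line in both panels, as does CCND3.

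In all, 7 of 10 members were tested at day 30 against day 6, and 4 were called higher and 0 lower. Of 18023 tested genes, 21.0% were called higher and 15.3% lower there. Calls over all genes depend on the scaling, since 57.8% of them were higher as deposited, 37.4% when scaled by total recovered reads and 43.3% as TPM. As TPM, 25626 genes were tested, against 18023 as deposited. The minimum of 1 and the added 1 thus act differently as TPM, and those calls do not reflect library scaling alone. The same counts, 7 tested, 4 higher and 0 lower, held at day 30 against day 0, where 25.9% of 17874 tested genes were called higher and 19.1% lower. There, 57.6% of the calls were higher as deposited, 48.0% when scaled by total recovered reads and 59.5% as TPM. The called members were CCND3, CDKN1A, CDKN1B and CDKN2B in both comparisons, which share the day 30 library. CDKN2B passed the minimum through day 30 alone, and with so few genes the share of members called is not read as setting them apart from all genes. Cell type markers moved in the same steps. At day 30 all 6 fibroblast markers had at least 1 FPKM, against 5 of 6 at day 6, and their sum was 5792 FPKM against 653 FPKM. At day 30, 1 of 6 pluripotent markers had at least 1 FPKM, against 3 of 6 at day 6, and their sum was 2.75 FPKM against 298 FPKM. Of the sum at day 6, LIN28A made up 275 FPKM, and POU5F1, SOX2 and NANOG had 3.68, 0.184 and 0.0751 FPKM by then, so most pluripotent markers were already low before this step. The part of these cell types in the calls of CCND3 and the inhibitors was not tested.

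Summed per library, the 5 cyclins had 82.5, 94.0, 68.0, 76.2, 51.4 and 77.1 FPKM over the 6 days, and the 5 inhibitors had 28.7, 34.4, 46.4, 34.3, 29.6 and 176 FPKM. Inhibitors over cyclins, a ratio within a library, was 2.28 ± 0.0427 (counting SE) at day 30, against 0.577 ± 0.0174 at day 6 and 0.348 ± 0.0109 at day 0. The highest ratio before day 30 was 0.682 ± 0.0180 at day 3. Without CDKN1A, a choice made after seeing the data, the ratio was 0.730 ± 0.0191 at day 30, against 0.399 ± 0.0140 at day 6 and 0.223 ± 0.00858 at day 0. The day 30 library thus kept the highest ratio with and without CDKN1A, and of these choices only the one with CDKN1A passed 1. With CDKN1C and CDKN2D added to the 5 inhibitors, the ratio was 8.51 at day 30, against 2.40 at day 6 and 0.483 at day 0, so that it passed 1 at day 6 already.

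**Figure D4:**
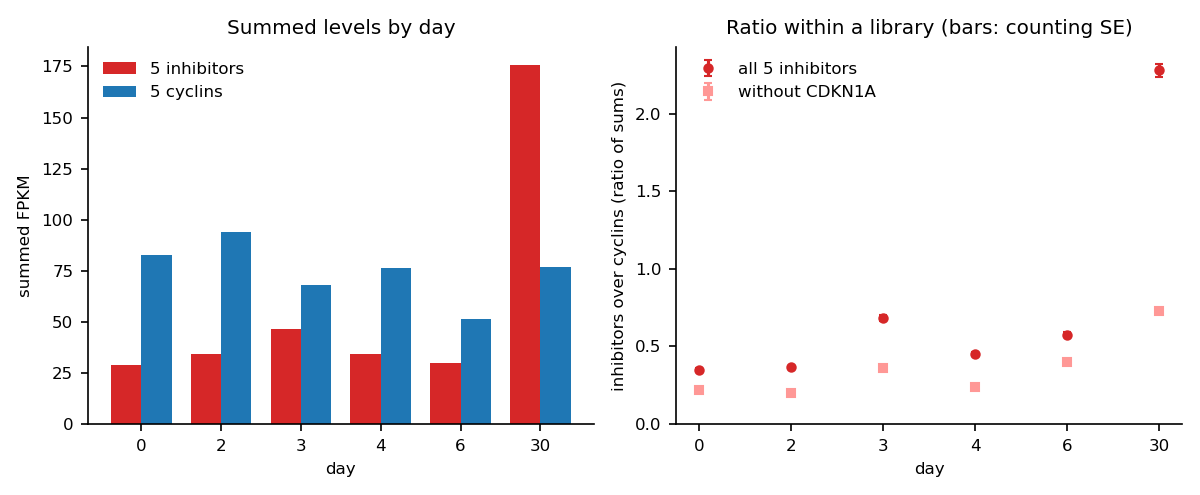
Left, summed FPKM of the 5 inhibitors and the 5 cyclins by day. Right, inhibitors over cyclins within each library, with all 5 inhibitors and without CDKN1A, and with bars of 1 counting SE. At day 30 the ratio was 2.28 with all inhibitors and 0.730 without CDKN1A.

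CDKN1C and CDKN2D, the other genes of the CIP/KIP and INK4 families, also rose at day 30. CDKN1C, which encodes the CIP/KIP protein p57, had 10.1, 9.20, 15.3, 23.2, 91.4 and 474 FPKM over the 6 days, and was 5.19-fold higher (5.01 to 5.37) at day 30 than at day 6. CDKN2D, which encodes the INK4 protein p19, had 6.19 FPKM at day 30 against 2.16 FPKM at day 6 (2.87-fold higher, 2.07 to 4.03), a call that was lost when scaled by total recovered reads (log2 difference 0.84). Of the kinases that G1 cyclins bind, CDK4 and CDK2 were not called. CDK4 had 19.9 FPKM at day 30 against 20.2 FPKM at day 6, a fold of 0.982 (0.895 to 1.08), and CDK2 a fold of 1.33 (1.19 to 1.49). CDK6 was the exception, with 4.44, 5.70, 4.42, 10.6, 25.2 and 9.42 FPKM over the 6 days. It rose at days 4 and 6 and fell at day 30, 2.67-fold lower (2.52 to 2.83) than at day 6. RB1 had 11.9 FPKM at day 30 against 5.22 FPKM at day 6 (2.29-fold higher, 2.06 to 2.54), and its call was lost when scaled by total recovered reads (0.66) or as TPM (0.86).

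Of 28 genes of the G1 kinase, pocket protein and E2F list, 27 were tested at day 30 against day 6. Of these, 3 were higher and 10 lower, with a median log2 difference of -0.38. The 3 higher were RB1 and the inhibitors CDKN1C and CDKN2D described above, which this list also holds. The count was 1 higher and 12 lower when scaled by total recovered reads, and 2 higher and 12 lower as TPM. Of all tested genes, 21.0% were higher and 15.3% lower as deposited, with a median of 0.08. E2F1, a transcription factor that RB1 holds in check, fell to 2.52 FPKM at day 30, against 24.5 FPKM at day 6 (9.72-fold lower, 7.72 to 12.4). The cyclin CCNA2, which acts in S phase, fell to 10.6 FPKM at day 30, against 36.4 FPKM at day 6. The phosphatase CDC25A, which activates CDK2, fell to 1.16 FPKM at day 30, against 9.36 FPKM at day 6. Against day 0, 2 of the 27 tested genes were higher and 10 lower, with a median of -0.72 beside 0.13 over all tested genes. The 2 higher were CDKN1C and CDKN2D. Of all tested genes, 25.9% were higher and 19.1% lower in that comparison.

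Genes of DNA replication and mitosis were lower at day 30 nearly throughout. Of 19 S phase genes, 18 were lower than at day 6 and 17 lower than at day 0, with 0 higher and medians of -2.12 and -2.27. Over all tested genes, 15.3% were lower than at day 6 and 19.1% lower than at day 0, with medians of 0.08 and 0.13. The histone RNA-binding protein SLBP was not called, at 31.4 FPKM at day 30 against 32.3 FPKM at day 6. Of 15 mitotic genes, 14 were lower than at day 6 and 15 lower than at day 0, with 0 higher and medians of -1.85 and -2.64. MKI67, a marker of cycling cells, had 5.35 FPKM at day 30 against 27.2 FPKM at day 6 (5.10-fold lower, 4.74 to 5.48). At day 3 against day 2, the step in which CCND1 and CCNE1 fell, 5 of 19 S phase genes were lower, PCNA and RRM2 among them, and 0 of 15 mitotic genes. Of all tested genes, 4.98% were lower in that step. PCNA, the sliding clamp of DNA polymerase, had 44.1 FPKM at day 3 against 103 FPKM at day 2.

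Targets of p53, the factor that acts on CDKN1A, gave 11 higher and 0 lower of 20 tested at day 30 against day 6, with a median log2 difference of 1.04, where 21.0% of all tested genes were higher and 15.3% lower. The count was 7 higher and 2 lower when scaled by total recovered reads, and 8 higher and 2 lower as TPM. Against day 0 the p53 targets gave 9 higher and 3 lower as deposited, with a median of 0.74. Over all tested genes, 25.9% were higher and 19.1% lower in that comparison. The count was 9 higher and 5 lower when scaled by total recovered reads, and 9 higher and 3 lower as TPM. GDF15, a secreted stress factor, had 194 FPKM at day 30 against 2.27 FPKM at day 6 (85.4-fold higher, 68.6 to 108). Day 6 was its lowest day, with 16.4, 13.8, 21.2 and 17.5 FPKM on days 0, 2, 3 and 4. Its log2 difference at day 30 against day 0 was 3.49. The death receptor FAS had 7.80 FPKM at day 30 against 0.626 FPKM at day 6 (12.5-fold higher, 9.18 to 17.3), and it passed the minimum only through day 30 in both comparisons, so it could be called only higher. MDM2, which encodes the ligase that degrades p53, was not called, with a fold of 1.48 (1.36 to 1.60) over day 6 and 0.840 (0.779 to 0.906) over day 0. AEN, an exonuclease, was lower against day 0, with 5.04 FPKM at day 30 and 18.9 FPKM at day 0. The fibroblast and pluripotent markers above moved in the same steps, and their part in these counts was not tested.

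**Figure D5:**
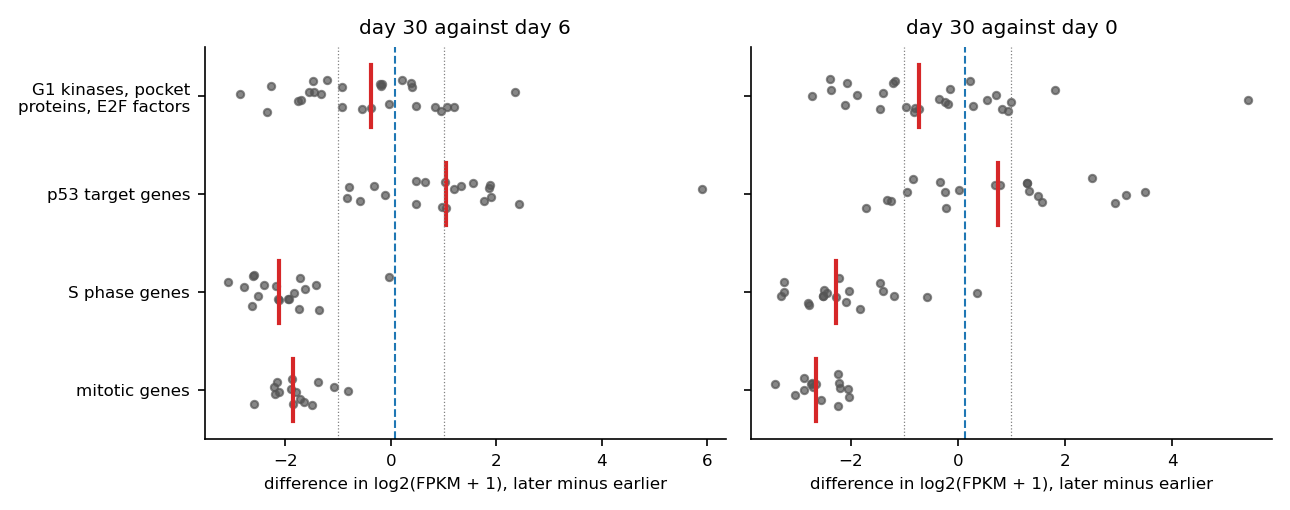
Difference in log2(FPKM + 1) at day 30 minus day 6 (left) and day 30 minus day 0 (right) for each tested gene of 4 lists. Red bars are list medians, the dashed blue line is the median of all tested genes, and dotted lines mark the call at 1 and -1. S phase and mitotic medians lie between -1.85 and -2.64, and those of p53 targets at 1.04 and 0.74.

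Likeness was measured as the root mean square difference between centred log2(FPKM + 1) profiles over the 6 libraries, among 9726 protein-coding genes that reached 5 FPKM, for the 6 members whose profile spanned at least 1. Nearest to CDKN1A were NFKB2, an NF-kappa-B subunit (0.20), NKD2 (0.23) and EHD2 (0.23). NFKB2 had 10.1, 11.9, 13.7, 13.9, 8.14 and 109 FPKM over the 6 days. Nearest to CDKN2B were CSF3, a growth factor of granulocytes (0.041), the cortisol-activating enzyme HSD11B1 (0.047) and SRPX2 (0.055), with at most 0.176 FPKM each up to day 6. Nearest to CCND1 were ADRM1, a ubiquitin receptor of the proteasome (0.19), the chaperone HSPH1 (0.23) and YRDC (0.24). CCND3 had ZNF800, BCAR1 and SYNGR2 as neighbours (0.12 to 0.13), CCNE1 had SLC27A4, LRP3 and CFL1 (0.088 to 0.13), and CDKN1B had KLHDC10, LRSAM1 and ADSSL1 (0.072 to 0.094). No gene of the cell cycle lists was among these 18. Those lists hold 28, 19 and 15 genes, few beside the 9726 searched, so their absence is not read as a result. These are descriptions of 6 points that share library and depth.

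Neighbouring genes limit some of the levels. On the opposite strand, LTO1 shares 10.3% of the exon bases of CCND1, and the transcript DINOL 4.79% of those of CDKN1A. AC008012.1 shares 13.8% of the exon bases of CCND2 on the same strand and was listed at 0 on every day. CDKN2A shares 7.88% of its exon bases with CDKN2B-AS1. Of 50-base stretches in the transcripts of CDKN2B, 0.765% also occur in transcripts of other genes, all of them in CDKN2A, so reads of these 2 INK4 genes were separable almost everywhere. CCNE1, CDKN1B and CDKN2C had no such stretch.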

How the data were processed

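RNA from 6 samples of the H9 line, 1 for each of 6 days, was sequenced after poly-T purification, per the labels' protocols. The submitters' processing notes list featureCounts 1.5.0-p3, HISAT2 and CASAVA. Settings, genome build and use of strand were not given in the sources used here. The authors deposited 1 table of FPKM values for 58735 genes, whose starts, ends and strands all equal GENCODE release 29 on GRCh38. Reads were recovered as FPKM times gene length over the smallest step of the library, and every value above 0 came out whole to within 0.001 read. The size factors behind the FPKM, over read totals, ranged between 0.826 at day 30 and 1.12 at day 6.

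Each day was compared with the one before it, and day 30 also with day 0, over the whole table on log2(FPKM + 1). A fold over a library with 0 reads is a bound set at 3 reads. Intervals of folds and of ratios are exact conditional binomial, and those of levels exact Poisson, at 95%. Reads are not molecules counted by identifiers, so intervals may be too narrow. The procedure was tested on simulated reads. The members and gene lists were chosen with earlier results of these data known. Named genes are the 10 members, fixed partners, the list genes with the largest and smallest change from day 0 to day 30, the 3 genes nearest to a member in profile and genes that overlap a member. FAS, CDC25A, MDM2, PCNA and RRM2, outside this rule, were named after their values were seen. The result of 1 gene that the rule names is not reported here. Of 9 marker lists, blood and neuron markers and the endothelial, epicardial and smooth muscle lists were measured too. At day 30 and day 0 they summed to 0.155 and 0.0792 FPKM for blood, 26.6 and 1.69 for neuron, 7.47 and 1.09 for endothelial, 21.6 and 0.440 for epicardial, and 83.2 and 15.9 for smooth muscle. Of the neuron sum at day 30, STMN2 made up 25.8 FPKM, and ELAVL4 and DCX stood lower at day 30 than at day 0. Python 3.11.15, numpy 2.4.6, scipy 1.17.1, pandas 2.3.3 and matplotlib 3.10.9 were used. Promoter sequences are those of RefSeq on GRCh38.p14.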

Additional observations from a re-analysis of the deposited data

How the results depend on the processing

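Over 8 alternative settings, the count of called members stayed within 1.5 times its main value in each of the 6 comparisons, except at a required log2 difference of 2. There, 0 members were called at day 3 against day 2 and 2 at day 30 against day 6. At the same setting, for day 30 against day 6, the called genes were 4 of the G1 kinase list, 2 p53 targets, 10 S phase genes and 5 mitotic genes. For day 30 against day 0 they were 6 of the G1 kinase list and 4 p53 targets. CDKN1B lost its call at day 30 against day 6 under scaling by total recovered reads and as TPM, as did RB1, SESN1, SESN2 and PHLDA3, and CDKN2D and BBC3 lost theirs under total reads. CDKN1B also lost its call against day 0 at a required difference of 2. As TPM, CDKN2A was called higher at day 30 in both comparisons and CDKN2C against day 0, where they passed the minimum. No called fold changed sign. Scaling by total reads multiplied every fold at day 30 against day 6 by 0.736, and the median gene's log2 difference became -0.28. TPM scaling multiplied them by 0.809, and the median became -0.20. Total reads multiplied folds at day 30 against day 0 by 0.842. Leaving out gene length moved 19 of 29 within-library ratios beyond their counting interval. Leaving out CDKN1A moved the inhibitor ratio on all 6 days. No paired analysis was possible because each day had 1 library. Depth limits CCNE2, CDKN2A and CDKN2C, with at most 69 reads a library.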
